A study of Mus musculus with 28 samples.

Results

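Mast cell proteases and receptors were followed through 10 genes: Mcpt4, Cma1, Tpsb2, Tpsab1, Cpa3, Ms4a2, Fcer1a, Mrgprb2, Hdc and Gata2. They were taken by gene name from the 2 deposited count tables and joined by Ensembl identifier, and all 10 were found among the 51976 genes that both tables hold. Expression was counted in 28 skin libraries from mice of 2 experiments on Vsir, the gene of VISTA, a checkpoint protein that restrains immune cells. In the keratinocyte experiment, K14creVsirfl/fl mice (cKO) were compared with Vsirfl/fl mice that carry no Cre (FL). The K14 promoter drives Cre in keratinocytes and not in mast cells, and a group with K14cre but unfloxed Vsir was not analysed here. In the whole-body experiment, Vsir-/- mice (KO), which lack the gene in every cell including mast cells, were compared with wild-type mice (WT). Each genotype was taken after ultraviolet B light (UV) and without it (NoUV). This gave cKO_UV, cKO_NoUV, FL_UV and FL_NoUV with 4 libraries each, and KO_UV, KO_NoUV, WT_UV and WT_NoUV with 3 libraries each. All mice were females of 12 weeks whose hair was removed 5 days before a UVB dose of 500 mJ/cm2. Sample titles give 3 h between UV and harvest, whereas the treatment protocol gives 1 day, and the labels do not settle which holds. A mouse strain is not given in the labels.

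Mast cells are long-lived immune cells of the dermis that store histamine and proteases, bound to heparin, in granules and release them within minutes of activation. They are triggered through IgE on its high-affinity receptor or, without IgE, through receptors for basic peptides. In skin they are known as sources of mediators of swelling and itch, and in mice they have been linked to the immune suppression that follows ultraviolet light. Mcpt4 and Cma1 encode chymases, Tpsb2 and Tpsab1 encode tryptases, and Cpa3 encodes the mast cell carboxypeptidase. Ms4a2 and Fcer1a encode the beta and alpha chains of the IgE receptor, and Mrgprb2 encodes a receptor for basic secretagogues and neuropeptides. Hdc encodes histidine decarboxylase, which makes histamine, and Gata2 encodes a transcription factor needed for mast cell development. Fcer1a, Ms4a2, Hdc and Gata2 are also used by basophils.

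In the GRCm38 build, Mcpt4 (chr14:56059629-56062313, minus strand) and Cma1 (chr14:55941451-55944675, minus strand) lie in the protease cluster of chromosome 14. Tpsb2 (chr17:25366305-25369098, plus strand) and Tpsab1 (chr17:25343245-25345562, minus strand) are neighbours on chromosome 17. Cpa3 is at chr3:20215620-20242181 and Mrgprb2 at chr7:48550965-48558086, both on the minus strand. The remaining 4 members stand alone on chromosomes 19 (Ms4a2), 1 (Fcer1a), 2 (Hdc) and 6 (Gata2). All 10 are annotated as protein-coding genes. Reads of 100 bases can be shared between near-identical copies, so every stretch of that length in each member's longest transcript was looked up in all other genes. Mcpt4 shared 1 of 1009 stretches (with Cma2), Ms4a2 shared 13 of 2292 (with Ms4a4b), and the other 8 members shared 0.

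The promoters of 8 members were available from RefSeq on GRCm38.p6 (all but Tpsb2 and Tpsab1), as the 250 bases before each start. They were searched for the core that GATA factors bind, as the letters AGATAA, the letters AGATAG, the letters TGATAA or the letters TGATAG, on either strand. A match was present in 7 of these 8 members, in all but Gata2, compared with 26.5% of 32851 mouse promoters of the same length. The promoters of 3 proteases that moved together, of the IgE receptor chain with 3 matches, and of Mrgprb2, whose level moved apart from the proteases, are shown with the matches in capitals.
Mcpt4, chr14:56062311-56062560, minus strand: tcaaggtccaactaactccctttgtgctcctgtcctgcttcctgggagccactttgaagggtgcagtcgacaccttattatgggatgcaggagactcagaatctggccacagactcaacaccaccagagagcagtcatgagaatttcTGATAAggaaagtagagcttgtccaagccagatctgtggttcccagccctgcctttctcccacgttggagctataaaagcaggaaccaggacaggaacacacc
Cma1, chr14:55944676-55944925, minus strand: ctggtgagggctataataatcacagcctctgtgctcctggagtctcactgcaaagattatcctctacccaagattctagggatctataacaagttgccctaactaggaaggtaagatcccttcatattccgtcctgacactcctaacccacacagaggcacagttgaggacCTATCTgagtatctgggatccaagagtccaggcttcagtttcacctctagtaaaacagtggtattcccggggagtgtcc
Cpa3, chr3:20242182-20242431, minus strand: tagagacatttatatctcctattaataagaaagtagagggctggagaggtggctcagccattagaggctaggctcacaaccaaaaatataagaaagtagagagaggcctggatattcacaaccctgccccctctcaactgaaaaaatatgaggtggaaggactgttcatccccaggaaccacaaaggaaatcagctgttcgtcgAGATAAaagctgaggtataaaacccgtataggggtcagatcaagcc
Ms4a2, chr19:11623720-11623969, minus strand: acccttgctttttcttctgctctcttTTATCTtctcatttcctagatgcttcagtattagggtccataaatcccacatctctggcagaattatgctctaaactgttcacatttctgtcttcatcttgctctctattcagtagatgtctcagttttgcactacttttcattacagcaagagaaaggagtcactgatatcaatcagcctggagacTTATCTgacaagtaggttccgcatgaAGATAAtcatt
Mrgprb2, chr7:48558087-48558336, minus strand: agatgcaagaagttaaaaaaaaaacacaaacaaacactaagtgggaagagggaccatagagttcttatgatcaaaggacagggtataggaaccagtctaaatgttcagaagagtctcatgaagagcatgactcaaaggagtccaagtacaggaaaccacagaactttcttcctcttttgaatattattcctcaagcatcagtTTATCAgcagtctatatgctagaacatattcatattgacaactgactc
Counted back from the RefSeq start, the match began 103 bases before it in Mcpt4, 79 in Cma1, 46 in Cpa3 and 48 in Mrgprb2, and at 224, 37 and 11 bases in Ms4a2. Fcer1a had 1 match 92 bases and Hdc 1 match 221 bases before the start. The E-box CATGTG, read on both strands, was present in the Fcer1a promoter and in none of the other 7, compared with 12.3% of all promoters. Its relative CACGTG was in none of the 8, compared with 6.02% of all promoters. These matches describe letters only and say nothing about binding.

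The keratinocyte libraries held 7.12 to 31.14 M counts (M for megacounts), with cKO_UV 3 (7.51 M) and FL_NoUV 1 (7.12 M) the shallowest, and the deeper whole-body libraries held 30.47 to 43.84 M. Vsir itself was lower in KO than in WT without UV (log2 fold change −2.64) and after UV (−2.89), and was not called between cKO and FL in whole skin (0.41 without UV, −0.07 after UV). Collagen and muscle genes were abundant in every library, with at least 3929 CPM for 7 fibroblast markers and at least 1616 CPM for 6 skeletal muscle markers, so the tissue held dermis and muscle although the series title names epidermis. The basophil protease Mcpt8 had at most 32 counts in a library and Prss34, another basophil protease, at most 6. The experiments carry different batch labels, 5.16.22 and 4.5.24, so a level set across them compares genotype, genetic background and batch at once, which cannot be told apart.

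Levels are given as CPM, the usual depth-scaled unit of read counts, after TMM scaling, a correction for library size and composition. Summed over the 10 members, the level was 119 ± 52.8 CPM in cKO_UV and 44.9 ± 14.8 CPM in cKO_NoUV, and 112 ± 28.8 CPM in FL_UV and 56.7 ± 24.3 CPM in FL_NoUV (SD, n = 4 each). In the whole-body experiment it was 195 ± 38.0 CPM in KO_UV and 217 ± 71.6 CPM in KO_NoUV, and 184 ± 32.7 CPM in WT_UV and 223 ± 75.7 CPM in WT_NoUV (SD, n = 3 each). Every library of the whole-body experiment except WT_NoUV 2 (139 CPM) was at 165 CPM or above, as was cKO_UV 2 alone (175 CPM) in the keratinocyte experiment. In bulk RNA, fewer mast cells and less RNA of these genes per cell cannot be told apart.

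Mcpt4 and Cpa3 led the order of levels, and the 2 chymases and the carboxypeptidase held the first 3 places in all 8 groups. To compare genes, CPM were divided by the length of the gene model in kilobases. On that scale Mcpt4 reached 37.6 ± 17.7 in cKO_UV and 12.5 ± 4.68 in cKO_NoUV, Cpa3 reached 19.9 ± 11.2 in cKO_UV and 7.22 ± 2.70 in cKO_NoUV, and Cma1 reached 13.1 ± 7.25 in cKO_UV and 3.81 ± 2.06 in cKO_NoUV (SD, n = 4). Mcpt4 and Cpa3 overlapped within their SD in 7 of the 8 groups, WT_UV being the exception with 60.3 ± 9.97 for Mcpt4 and 34.4 ± 7.95 for Cpa3. Cpa3 and Cma1 also overlapped in 7 of 8, with KO_UV as the exception (40.6 ± 9.56 for Cpa3 and 25.2 ± 4.68 for Cma1). The next 2 places were held by Tpsb2 and Mrgprb2 in every group. Without UV, Mrgprb2 stood above Tpsb2 in the keratinocyte experiment (3.26 ± 1.09 against 1.10 ± 0.42 in cKO_NoUV, 2.84 ± 0.18 against 1.35 ± 1.15 in FL_NoUV), and Tpsb2 stood above Mrgprb2 in the whole-body experiment (7.53 ± 2.98 against 3.39 ± 0.36 in KO_NoUV, 9.07 ± 4.98 against 2.87 ± 1.07 in WT_NoUV). The Tpsb2 gene model is 2191 bases long in the keratinocyte table and 1594 in the whole-body table, which by itself lowers its value per kilobase in the keratinocyte table. Ms4a2, Gata2, Hdc and Fcer1a followed between 0.16 and 1.96, with SDs that overlapped between neighbours in the order except for Gata2 (1.02 ± 0.21) and Hdc (0.55 ± 0.09) in KO_NoUV, and Tpsab1 was last everywhere.

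Tpsab1, the second tryptase gene, was very low in both experiments. It had between 0 and 8 counts in the libraries of the keratinocyte experiment and between 0 and 17 in those of the whole-body experiment, 31 and 91 counts in all. At 3 counts as the floor, 14 of 16 and 2 of 12 of these libraries were at or under it. It was too low for the test in the keratinocyte experiment, so 9 members were tested there and 10 in the whole-body experiment. C57BL/6 mice are known to lack this tryptase, but no strain is named for these animals.

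**Figure D1:**
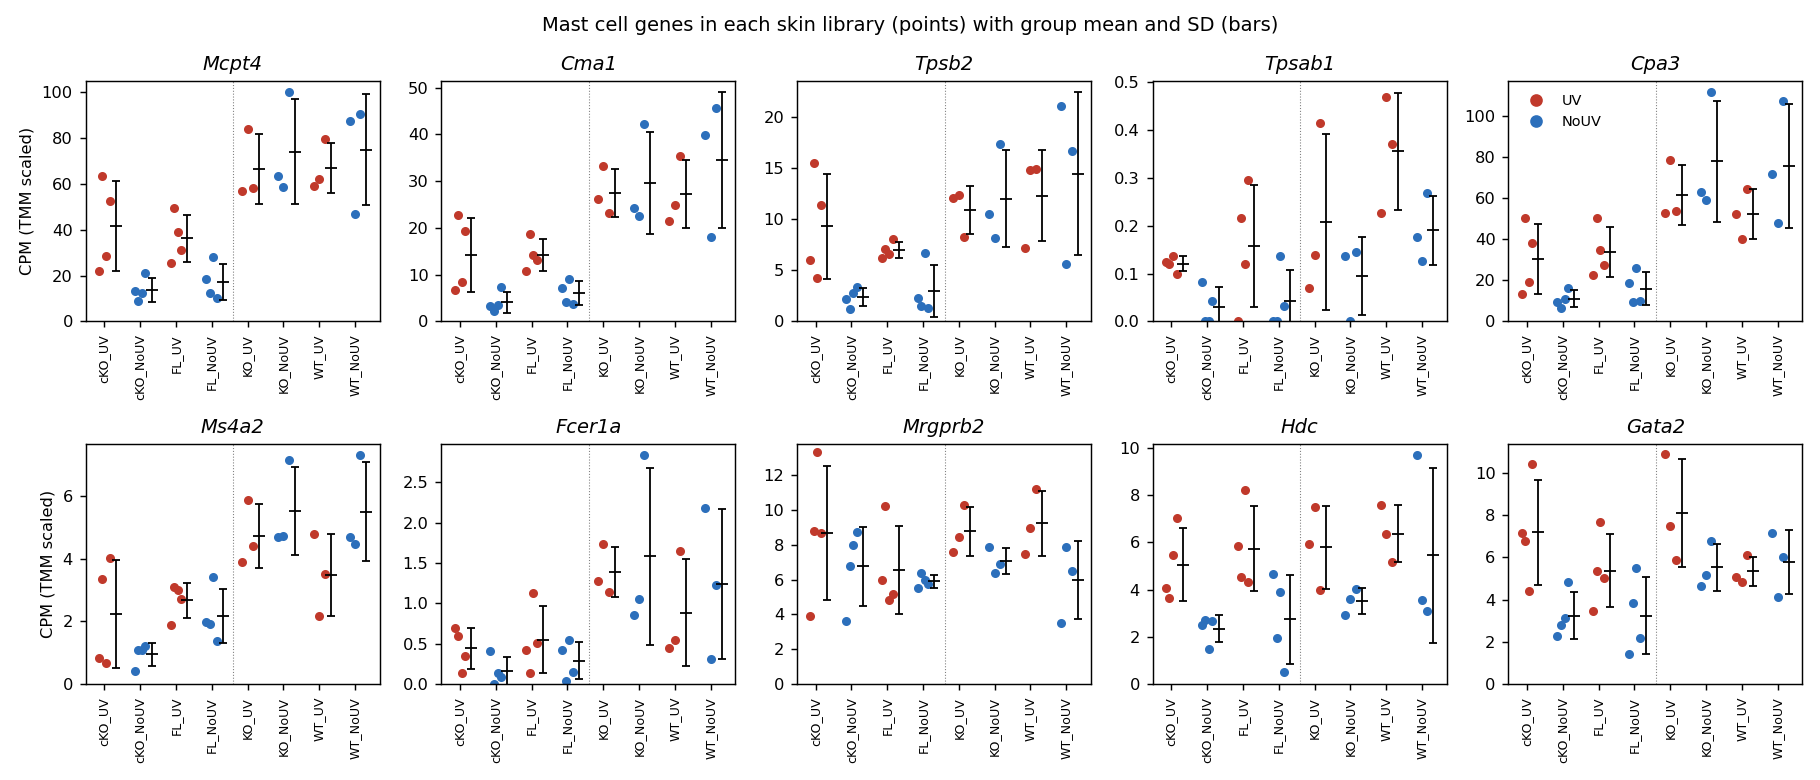
CPM of the 10 genes in each library (points, red for UV and blue for NoUV) by group, with the group mean and SD as black bars drawn beside the points and cut at 0. In the keratinocyte groups, left of the dotted line, Mcpt4 was at 22.0 CPM or more in all 4 cKO_UV libraries and at 21.1 CPM or less in all 4 cKO_NoUV libraries, while the whole-body groups to the right overlapped.

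UV-exposed skin of the keratinocyte experiment held more RNA of the granule proteases than unexposed skin. Over cKO and FL together, 6 of the 9 members tested were higher after UV and 0 were lower: Mcpt4, Cma1, Tpsb2, Cpa3, Hdc and Gata2. The call rule was a Benjamini-Hochberg adjusted p under 0.05 in edgeR's quasi-likelihood test over 19718 genes, which called 24.3% of all genes in either direction and 12.0% as higher. All 9 members had a positive log2 fold change, with a median of 1.28 compared with 0.01 over all genes tested. In cKO alone 4 of 9 were called, all higher, at a background of 9.72% in either direction and 4.57% higher. In FL alone 0 were called, at a background of 7.62%. An unadjusted p under 0.05 was reached by 5 of 9 members and by 4520 of all 19718 genes. DESeq2 called 2 members in FL (Mcpt4 and Cma1). The share of all genes called by DESeq2 is not given here for any comparison. The difference between the UV effects of cKO and FL was itself tested and called for 0 of 9 members, so no difference between the genotypes in this response is shown.

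Mcpt4, the chymase most typical of connective tissue mast cells, had 22.0, 63.5, 28.7 and 52.6 CPM in cKO_UV, against 13.2, 8.88, 12.2 and 21.1 CPM in cKO_NoUV. In FL_UV it had 25.4, 49.2, 39.1 and 31.1 CPM, against 18.3, 12.5, 28.1 and 10.2 CPM in FL_NoUV. Every cKO_UV library lay above every cKO_NoUV library, and in FL the groups overlapped through FL_NoUV 3 alone. The log2 fold change was 1.59 in cKO (SE 0.38, adjusted p = 0.0164), 1.07 in FL (SE 0.38, adjusted p = 0.0992) and 1.33 over both (SE 0.27, adjusted p = 0.00235).

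Cma1, which encodes the alpha-chymase, had 6.67, 22.7, 8.50 and 19.3 CPM in cKO_UV, against 3.36, 2.28, 3.58 and 7.41 CPM in cKO_NoUV. In FL_UV it had 10.8, 18.8, 14.2 and 13.1 CPM, against 7.22, 4.16, 9.14 and 3.73 CPM in FL_NoUV. Here the FL groups did not overlap, and the cKO groups overlapped through cKO_UV 1 and cKO_NoUV 4. Its log2 fold change was 1.79 in cKO (SE 0.43, adjusted p = 0.0168), 1.23 in FL (SE 0.43, adjusted p = 0.0919) and 1.51 over both (SE 0.30, adjusted p = 0.00218). The tryptase gene Tpsb2 had 5.97, 15.5, 4.25 and 11.4 CPM in cKO_UV, against 2.16, 1.26, 2.81 and 3.39 CPM in cKO_NoUV. In FL_UV it had 6.22, 7.07, 6.62 and 8.10 CPM, against 2.27, 1.51, 6.68 and 1.35 CPM in FL_NoUV. All cKO_UV libraries exceeded all cKO_NoUV libraries, whereas FL_NoUV 3 was within the FL_UV range. Its fitted change was the largest of the members over both genotypes, at 1.59 (SE 0.35, adjusted p = 0.00377), with 1.96 in cKO (SE 0.50, adjusted p = 0.0214) and 1.23 in FL (SE 0.49, adjusted p = 0.146).

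Cpa3, whose carboxypeptidase trims peptides after the chymases have cut them, had 13.3, 50.2, 19.2 and 38.2 CPM in cKO_UV, against 9.58, 6.72, 11.0 and 16.5 CPM in cKO_NoUV. In FL_UV it had 22.8, 50.4, 34.6 and 27.6 CPM, against 18.6, 9.44, 26.2 and 9.81 CPM in FL_NoUV. Both genotypes overlapped, through cKO_UV 1 and through FL_NoUV 3. The log2 fold change was 1.47 in cKO (SE 0.44, adjusted p = 0.0455), 1.08 in FL (SE 0.43, adjusted p = 0.147) and 1.28 over both (SE 0.31, adjusted p = 0.00738).

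The libraries that carried the highest protease levels were the same ones for all 4 genes in cKO_UV, namely cKO_UV 2 and cKO_UV 4. Members whose groups did not overlap numbered 3 in cKO (Mcpt4, Tpsb2 and Hdc, all above) and 1 in FL (Cma1, above), where 8.59% and 6.67% of all genes tested had UV libraries entirely above. In cKO alone the count of 4 called members fell to 0 without cKO_UV 2, 2 without cKO_UV 4, 0 without cKO_NoUV 2 and 1 without cKO_NoUV 3, with log2 fold changes that kept their sign. Same-numbered cKO_UV and cKO_NoUV libraries deviated together in all 4 pairs, which does not by itself show that a number marks a pair. With the replicate number as a block the count in cKO was again 4, with Cpa3 not called (1.40, adjusted p = 0.0714) and Gata2 called (1.22, adjusted p = 0.0388). Cpa3 was called in 7 of the 16 fits that left out 1 library, and Mcpt4, Cma1 and Tpsb2 in 13 of 16 each. In FL the count was 2 (Mcpt4 and Tpsb2) without FL_NoUV 3. Over both genotypes Mcpt4, Cma1, Tpsb2, Cpa3 and Gata2 were called in all 16 such fits.

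The IgE receptor chains and the peptide receptor were not called after UV in the keratinocyte experiment. Ms4a2 had 0.823, 3.37, 0.686 and 4.02 CPM in cKO_UV, against 0.415, 1.10, 1.10 and 1.21 CPM in cKO_NoUV, and 1.88, 3.10, 3.01 and 2.72 CPM in FL_UV, against 1.98, 1.91, 3.41 and 1.38 CPM in FL_NoUV. Its 2 high cKO_UV libraries were again replicates 2 and 4, and both genotypes overlapped. Over both genotypes the log2 fold change was 0.77 (SE 0.35, adjusted p = 0.121). Fcer1a was the lowest member tested, with 0 to 28 counts per library, and its log2 fold change of 1.30 had a wide interval (95% interval 0.08 to 2.52, adjusted p = 0.113).

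Mrgprb2, through which basic drugs and neuropeptides activate mast cells without IgE, had 3.91, 8.81, 13.3 and 8.69 CPM in cKO_UV, against 3.61, 6.76, 7.96 and 8.75 CPM in cKO_NoUV. In FL_UV it had 5.97, 10.2, 4.82 and 5.19 CPM, against 5.52, 6.38, 5.97 and 5.73 CPM in FL_NoUV. The groups overlapped in both genotypes. The log2 fold change over both was 0.24 (95% interval −0.26 to 0.75, adjusted p = 0.492). The fitted changes of the 4 proteases lay above that interval but have intervals of their own, and a difference between genes was not tested.

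Hdc, the histamine-forming enzyme, and Gata2 were called over both genotypes but in neither alone. Hdc had 4.07, 3.65, 5.49 and 7.05 CPM in cKO_UV, against 2.49, 2.71, 1.50 and 2.68 CPM in cKO_NoUV, and 5.84, 4.55, 8.23 and 4.31 CPM in FL_UV, against 4.67, 1.95, 3.89 and 0.501 CPM in FL_NoUV. All cKO_UV libraries were above all cKO_NoUV libraries, and the FL groups overlapped through FL_NoUV 1. Its log2 fold change over both was 1.11 (SE 0.33, adjusted p = 0.0234), and it missed the threshold without FL_NoUV 2 (adjusted p = 0.0512), FL_UV 3 (0.052) or cKO_UV 4 (0.051). Gata2 had 7.16, 6.77, 4.39 and 10.4 CPM in cKO_UV, against 2.28, 2.79, 3.11 and 4.81 CPM in cKO_NoUV. In FL_UV it had 3.45, 5.34, 7.67 and 5.04 CPM, against 1.42, 3.85, 5.49 and 2.16 CPM in FL_NoUV. The ranges overlapped in both genotypes, in cKO through cKO_UV 3 and cKO_NoUV 4. Its log2 fold change over both was 0.93 (SE 0.27, adjusted p = 0.0199).

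In the whole-body experiment no member was called after UV. Over KO and WT together 0 of 10 members passed at a background of 37.3% of 20365 genes, and 1 (Mrgprb2) had an unadjusted p under 0.05 and was called by DESeq2. In KO alone 0 of 10 passed at a background of 22.4%, with 0 at an unadjusted p under 0.05 and 0 by DESeq2. In WT alone 0 of 10 passed at a background of 18.7%, with 1 at an unadjusted p under 0.05 and 0 by DESeq2. Of all 20365 genes, 9384 over KO and WT, 7088 in KO and 6545 in WT had an unadjusted p under 0.05. The median log2 fold change of the 10 members over KO and WT was −0.17, compared with 0.01 over all genes.

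Mcpt4 had 56.6, 83.8 and 58.2 CPM in KO_UV, against 63.1, 58.7 and 100.1 CPM in KO_NoUV, and 59.0, 62.0 and 79.5 CPM in WT_UV, against 87.2, 46.9 and 90.4 CPM in WT_NoUV. The UV libraries lay within or close to the NoUV range in both genotypes. The log2 fold change over both was −0.16, with a 95% interval of −0.57 to 0.25. Cpa3 had 52.9, 78.3 and 53.6 CPM in KO_UV, against 62.9, 58.8 and 111.6 CPM in KO_NoUV, and 52.1, 40.1 and 64.3 CPM in WT_UV, against 71.8, 47.7 and 107.2 CPM in WT_NoUV. Its groups overlapped too, with a log2 fold change of −0.44 (95% interval −0.90 to 0.03, adjusted p = 0.135). The second chymase gene, Cma1, had 26.2, 33.2 and 23.2 CPM in KO_UV, against 24.2, 22.5 and 42.3 CPM in KO_NoUV, and 21.5, 24.9 and 35.3 CPM in WT_UV, against 39.9, 18.1 and 45.6 CPM in WT_NoUV. Its UV and NoUV libraries overlapped in both genotypes, with a 95% interval of −0.72 to 0.27 for the log2 fold change. Tpsb2 had 12.1, 12.4 and 8.23 CPM in KO_UV, against 10.5, 8.15 and 17.3 CPM in KO_NoUV, and 7.20, 14.8 and 14.9 CPM in WT_UV, against 21.1, 5.65 and 16.7 CPM in WT_NoUV. Its groups overlapped as well, and the interval was −0.83 to 0.46.

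Mrgprb2 had the change nearest to the threshold in the whole-body experiment. It had 7.59, 8.42 and 10.3 CPM in KO_UV, against 7.85, 6.40 and 6.89 CPM in KO_NoUV, and 7.49, 8.96 and 11.2 CPM in WT_UV, against 3.50, 7.86 and 6.51 CPM in WT_NoUV. The groups overlapped narrowly in each genotype. Its log2 fold change was 0.48 (SE 0.19, adjusted p = 0.0651), and it was called without WT_NoUV 2 (adjusted p = 0.0317). Hdc had a log2 fold change of 0.47 (SE 0.27, adjusted p = 0.203) and was called without WT_NoUV 1, the library with 9.72 CPM where the other 2 of its group had 3.57 and 3.08 CPM (0.82, adjusted p = 0.00404). Without that library Hdc was also called in WT alone (0.93, adjusted p = 0.0365). Hdc had 5.93, 7.48 and 3.98 CPM in KO_UV, against 2.91, 3.63 and 4.02 CPM in KO_NoUV, and 7.59, 6.37 and 5.15 CPM in WT_UV, against 9.72, 3.57 and 3.08 CPM in WT_NoUV, with overlap in both genotypes.

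The IgE receptor chains, Gata2 and Tpsab1 were not called either. Ms4a2 had 3.90, 5.88 and 4.40 CPM in KO_UV, against 4.70, 4.71 and 7.15 CPM in KO_NoUV, and 4.78, 2.18 and 3.50 CPM in WT_UV, against 4.69, 4.48 and 7.32 CPM in WT_NoUV. Its groups overlapped, and its log2 fold change of −0.44 (adjusted p = 0.135) was called as lower only without WT_UV 1 (−0.61, adjusted p = 0.0462) among the 12 fits that left out 1 library. Fcer1a had 1.28, 1.74 and 1.15 CPM in KO_UV, against 0.851, 1.06 and 2.84 CPM in KO_NoUV, and 0.452, 0.551 and 1.65 CPM in WT_UV, against 2.18, 0.316 and 1.22 CPM in WT_NoUV, so single libraries of 1 group differed more than the groups did. Gata2 had 10.9, 7.48 and 5.88 CPM in KO_UV, against 4.64, 5.18 and 6.77 CPM in KO_NoUV, and 5.07, 4.82 and 6.12 CPM in WT_UV, against 7.16, 4.13 and 6.03 CPM in WT_NoUV, again with overlap in both genotypes, and its log2 fold change was 0.22 (adjusted p = 0.404). The few counts of Tpsab1 gave a log2 fold change of 1.07 (SE 0.55, adjusted p = 0.146).

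**Figure D2:**
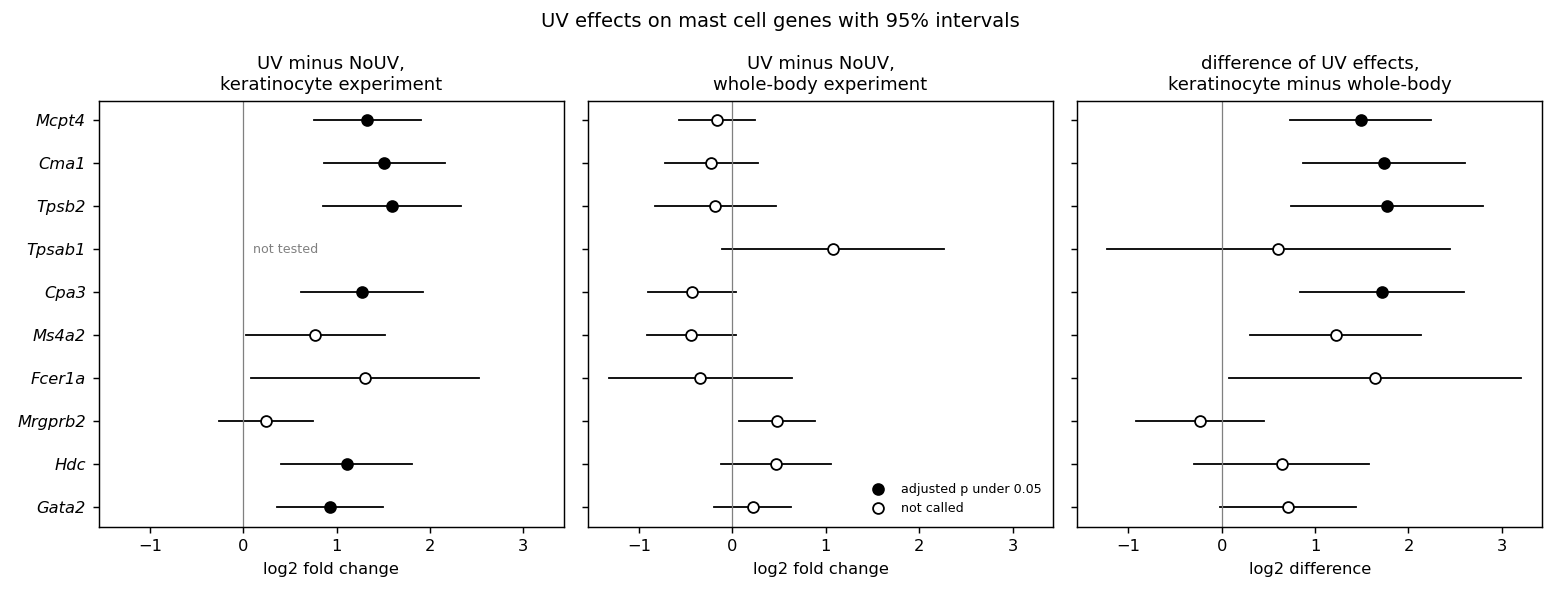
Log2 fold changes after UV (points) with 95% intervals of the edgeR fit (lines) for the 10 genes over cKO and FL, over KO and WT, and the difference of these UV effects as keratinocyte minus whole-body experiment; filled points passed the adjusted threshold. Mcpt4, Cma1, Tpsb2 and Cpa3 lie at 1.28 to 1.59 in the first panel, between −0.44 and −0.16 in the second, and at 1.49 to 1.77 in the third.

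The UV effects of the experiments were compared in 1 model of all 8 groups over 21851 genes, as the mean effect in cKO and FL minus the mean effect in KO and WT. The 4 protease genes differed, and all 4 had the higher UV effect in the keratinocyte experiment: 4 of 10 members were called, at a background of 9.09% in either direction and 3.98% higher. The log2 difference was 1.49 for Mcpt4 (SE 0.36, adjusted p = 0.0108), 1.74 for Cma1 (SE 0.42, adjusted p = 0.00964), 1.77 for Tpsb2 (SE 0.50, adjusted p = 0.0257) and 1.71 for Cpa3 (SE 0.42, adjusted p = 0.0122). Ms4a2 (1.22, adjusted p = 0.0884), Fcer1a (1.64, adjusted p = 0.194), Gata2 (0.71, adjusted p = 0.237), Hdc (0.64, adjusted p = 0.445) and Tpsab1 (0.61, adjusted p = 0.76) were not called. Mrgprb2 was the only member with a negative difference, at −0.23 (95% interval −0.91 to 0.45). Tpsb2 missed the threshold without WT_NoUV 1 (adjusted p = 0.0566), KO_NoUV 3 (0.0565), KO_UV 3 (0.0528) or WT_UV 1 (0.0505), and the other 3 proteases were called in all 28 fits that left out 1 library. This difference sets controls and knockouts of one batch against those of another. Batch, genetic background and the body position of the skin, described next, cannot be told apart in it.

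A gene of body position differed between the libraries. Hoxc10, a homeobox gene transcribed in the hind part of the body and named after its values were seen, had 137 to 265 counts in KO_UV, against 1 to 2 in KO_NoUV, and 161 to 272 counts in WT_UV, against 0 to 1 in WT_NoUV. In the keratinocyte experiment it had 0 to 2 counts in cKO_UV, against 2, 112, 94 and 115 in cKO_NoUV, and 42, 0, 52 and 128 counts in FL_UV, against 4, 66, 146 and 120 in FL_NoUV. Thus the Hoxc10 level ran with UV in the whole-body experiment, against UV in cKO, and with no such split in FL. In the whole-body experiment UV and body position therefore cannot be told apart, which also holds for the absence of called members after UV there. With the log2 CPM of Hoxc10 as a covariate, 0 members were called in cKO, 4 over cKO and FL (Mcpt4, Cma1, Tpsb2 and Gata2), and 0 in the comparison of the experiments. The share of all genes called in these fits is not given here, so the counts cannot be read as particular to the members. This covariate largely repeats the UV labels in cKO and in the whole-body experiment, so a call lost under it cannot tell UV from body position. The fitted changes in cKO under that covariate were 1.43 for Mcpt4 (adjusted p = 0.153), 1.70 for Cma1 (0.142), 2.24 for Tpsb2 (0.0849) and 1.24 for Cpa3 (0.277). In the comparison of the experiments they were 1.20 for Mcpt4 (adjusted p = 0.475), 1.65 for Cma1 (0.386), 2.46 for Tpsb2 (0.246) and 1.28 for Cpa3 (0.524).

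No member was called between the genotypes of either experiment. Between cKO and FL, Vsir itself was not called in whole skin (0.17 over both treatments, adjusted p = 0.821). KO against WT gave 0 of 10 members without UV (background 0.00982% of genes), 0 of 10 after UV (0.0442%) and 0 of 10 over both treatments (7.45%), and DESeq2 gave 0 in each. The members with an unadjusted p under 0.05 numbered 0, 1 (Gata2 after UV, log2 fold change 0.60, adjusted p = 0.324) and 0. Among all 20365 genes, 3219, 3071 and 6035 had one in the same comparisons. cKO against FL gave 0 of 9 members without UV, after UV and over both treatments, where 0 genes at all were called, and DESeq2 gave 0 members each time. Only Ms4a2 without UV had an unadjusted p under 0.05 there (log2 fold change −1.18, SE 0.51, adjusted p = 0.923), with its cKO_NoUV libraries all below its FL_NoUV libraries, as for 0.791% of genes. Without UV, 928 of all 19718 genes had an unadjusted p under 0.05 between cKO and FL. The UV effects in KO minus WT and in cKO minus FL were called for 0 members, with 0 at an unadjusted p under 0.05 and 0 by DESeq2, at backgrounds of 0%. An unadjusted p under 0.05 was reached by 313 and 248 of all genes in these comparisons.

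For Mcpt4 over both treatments, KO minus WT had a 95% interval of −0.42 to 0.39 on the log2 scale and cKO minus FL one of −0.62 to 0.51. The difference of UV effects was 0.00 in KO minus WT (−0.81 to 0.82) and 0.52 in cKO minus FL (−0.60 to 1.65). For Cpa3 the same differences were 0.20 (−0.74 to 1.13) and 0.38 (−0.91 to 1.67).

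The proteases spanned a narrower range of ratios to each other than Mrgprb2 did. Per 100 Mcpt4 counts of the same library, Cma1 had 29.7 to 42.4 counts in the 8 UV libraries of the keratinocyte experiment and 25.4 to 39.5 in its 8 NoUV libraries, and 36.5 to 46.2 in the 6 UV and 38.4 to 50.5 in the 6 NoUV libraries of the whole-body experiment. Cpa3 had 60.5 to 102 counts after UV and 72.4 to 102 without it in the keratinocyte experiment, and 64.7 to 93.4 and 82.4 to 119 in the whole-body experiment. Tpsb2 had a median of 23.1 after UV and 15.1 without in the keratinocyte experiment, and 16.8 and 17.0 in the whole-body experiment. For Mrgprb2 the median was 17.2 counts after UV (range 12.3 to 46.4) and 46.1 without (21.3 to 76.1) in the keratinocyte experiment, and 13.8 (10.0 to 17.7) and 9.06 (4.02 to 16.8) in the whole-body experiment. Mrgprb2 per Mcpt4 was thus highest in unexposed skin of the keratinocyte experiment, where Mcpt4 was lowest, and the UV and NoUV ranges overlapped through cKO_UV 3 (46.4) and FL_UV 1 (23.5). Wide ranges were not particular to Mrgprb2 in the keratinocyte experiment. Per 100 Mcpt4 counts, Hdc had 5.74 to 23.0 counts after UV and 4.89 to 30.5 without it. Gata2 had 10.7 to 32.6 and 7.75 to 31.4, and Ms4a2 had 2.39 to 8.77 and 3.13 to 15.2. All these ratios were looked at after the values were seen and carry no test.

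**Figure D3:**
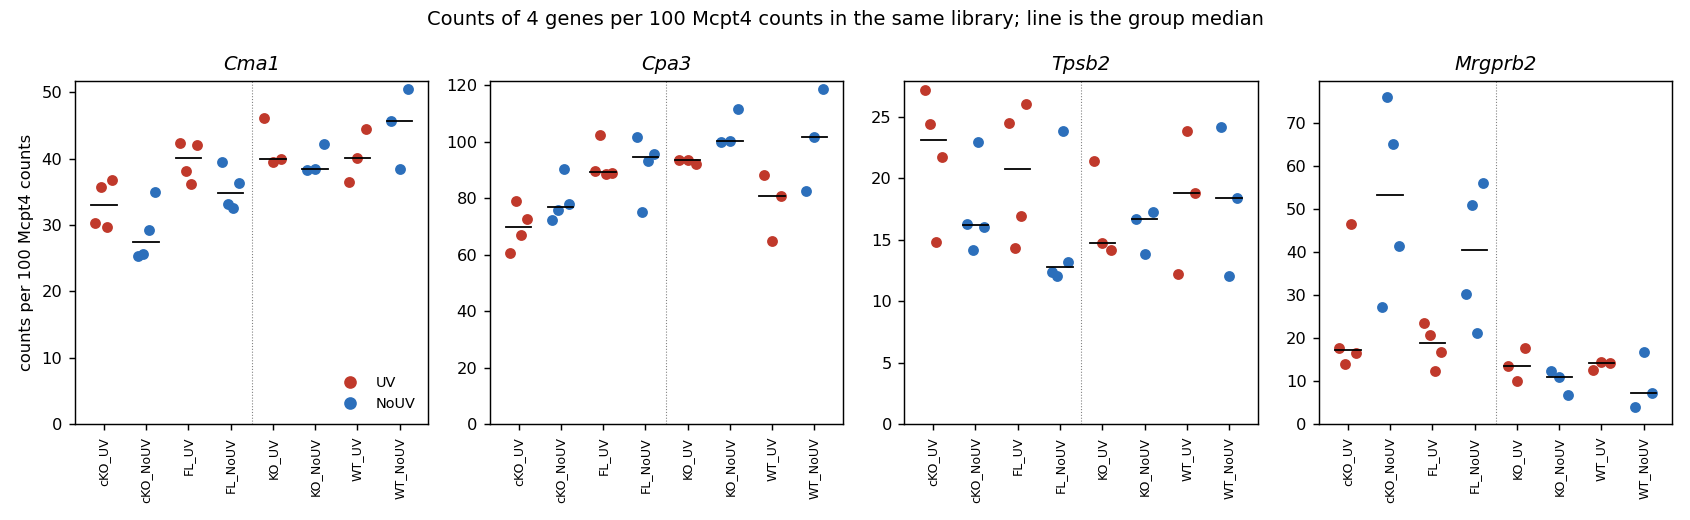
Counts of Cma1, Cpa3, Tpsb2 and Mrgprb2 per 100 Mcpt4 counts of the same library, by group, with the group median as a line (red for UV, blue for NoUV). Cma1 stayed between 25.4 and 50.5 in all 28 libraries, whereas Mrgprb2 ranged from 4.02 to 76.1.

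The members also varied together within groups, where neither UV nor genotype differs. As a description, each member's log2 CPM minus its group mean was correlated with the mean of the other members, over 12 whole-body and 16 keratinocyte libraries that share depth and tissue makeup. Pearson's r was 0.94 in the keratinocyte and 0.97 in the whole-body experiment for Mcpt4, 0.91 and 0.97 for Cma1, 0.90 and 0.85 for Cpa3, and 0.89 and 0.82 for Tpsb2. It was 0.71 and 0.41 for Ms4a2, 0.49 and 0.70 for Gata2, 0.20 and 0.91 for Fcer1a, 0.38 and 0.25 for Hdc, and 0.08 and −0.45 for Mrgprb2. The 4 proteases were at 0.82 or above in both experiments, Fcer1a was that high in the whole-body experiment alone, and Mrgprb2 was the lowest of the 9 in both.

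By the same measure, 18060 other genes were ranked by the smaller of their r with the mean of the 9 members tested in both experiments. The 10 most like them were Ifnar2 (smaller r 0.87), Ace (0.85), Cd300ld (0.84), Dab2 (0.84), Hexa (0.84), Srpx2 (0.82), Itgb2 (0.82), Nfam1 (0.82), Ms4a7 (0.81) and Clec4a1 (0.79). Several of these are known from macrophages, among them Ms4a7 and Clec4a1, and the macrophage markers Adgre1 (0.77) and Mrc1 (0.75) ranked 17 and 34. Of these 10, 2 were called after UV over cKO and FL and 1 over KO and WT, where 24.3% and 37.3% of all genes were called. Srpx2 was higher over cKO and FL (0.66, adjusted p = 0.00926), was not called over KO and WT (−0.16), and differed between the experiments (0.82, adjusted p = 0.0272). Ace was higher after UV over cKO and FL (log2 fold change 0.90, adjusted p = 0.0183) and over KO and WT (0.65, adjusted p = 0.00864), and Ifnar2 was called in neither (0.25 and 0.11).

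Other genes of mast cells were taken from lists of proteases, granule storage, receptors, transcription factors and lipid mediator enzymes. Among other mast cell proteases, Tpsg1, a membrane-bound tryptase, was the only one of 2 tested that was called over cKO and FL (1.31, SE 0.36, adjusted p = 0.016), with 1.08 CPM in cKO_UV and 0.322 CPM in cKO_NoUV on average. In the whole-body experiment 0 of 3 were called over KO and WT, with 0 by unadjusted p under 0.05, which 9384 of 20365 genes reached. Of all genes tested, 24.3% were called over cKO and FL and 37.3% over KO and WT. Mcpt1 and Mcpt2, proteases of mucosal mast cells, were too low to test in either experiment.

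Receptor and signalling genes were called at shares near those of all genes, which were 24.3% over cKO and FL and 37.3% over KO and WT. Of 12 tested over cKO and FL, 2 were higher and 0 lower: Il1rl1, the receptor of interleukin 33 (0.91, SE 0.20, adjusted p = 0.00325), and Mrgprb1, a relative of Mrgprb2 (1.09, SE 0.27, adjusted p = 0.00834). Of 12 tested over KO and WT, 0 were higher and 5 lower: Kit, the receptor of stem cell factor on which mast cells depend (−1.37, adjusted p = 0.000159), the kinase Lyn (−1.02, adjusted p = 0.000189), the adenosine receptor Adora3 (−1.36, adjusted p = 0.000776), Mrgprb1 (−0.70, adjusted p = 0.00972) and Cd200r3 (−0.89, adjusted p = 0.0143). Kit averaged 6.59 CPM in KO_UV and 19.7 CPM in KO_NoUV, and 8.42 CPM in WT_UV and 18.7 CPM in WT_NoUV, and the UV ranges lay below the NoUV ranges in both genotypes. Melanocytes also express Kit, and in cKO and FL it was not called (−0.61, adjusted p = 0.124). The difference between the experiments was called as higher in the keratinocyte experiment for Mrgprb1 (1.79, adjusted p = 0.002), Il1rl1 (1.38, adjusted p = 0.00427), Cd200r3 (2.04, adjusted p = 0.0148) and Lyn (0.95, adjusted p = 0.0177). Of all genes, 3.98% were called higher in that comparison.

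Of 8 granule storage genes, 2 were called over cKO and FL and 3 over KO and WT, again near the shares of 24.3% and 37.3% over all genes. Srgn, whose proteoglycan holds the proteases in the granule and which other leukocytes also make, was higher over cKO and FL (0.86, adjusted p = 0.00137) and over KO and WT (0.49, adjusted p = 0.029). It was the 1 storage gene called higher in each experiment, with Rab27a lower in both (−0.37 and −0.39) and Rab27b lower over KO and WT (−0.44). Among transcription factors, Mitf, which melanocytes share, was lower over cKO and FL (−0.83, adjusted p = 0.000892) and over KO and WT (−1.10, adjusted p = 0.000267). Tal1 was higher over cKO and FL (0.78, adjusted p = 0.0123), and Runx1 was lower over KO and WT (−0.97, adjusted p = 0.00113), with 6 and 7 tested against the same shares of 24.3% and 37.3%. Of 6 lipid mediator enzymes, Ptgs2, which many skin cells induce, was higher over cKO and FL (1.80, adjusted p = 0.0052) and over KO and WT (1.09, adjusted p = 0.0107), and Hpgds was lower over KO and WT (−0.41, adjusted p = 0.0415). The genotype called 2 genes of that list, with Hpgds (0.94, adjusted p = 0.00795) and Alox5 (0.66, adjusted p = 0.0237) higher in KO than in WT over both treatments. In that comparison 7.45% of all genes were called.

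Few genes were tested among signals that act on mast cells and receptors of their products, against background shares of 37.3% over KO and WT and 24.3% over cKO and FL. Over KO and WT, Kitl, which encodes stem cell factor (−0.87, adjusted p = 0.00939), and Il33 (−0.66, adjusted p = 0.00423) were lower after UV, 2 of 3 tested. Over cKO and FL, Tslp was higher (1.30, adjusted p = 0.0149), 1 of 3 tested. Among 4 receptors for histamine and protease products on other cells, Hrh1 (−1.58, adjusted p = 4.37e-05), F2rl1, a receptor that tryptase cleaves (−0.61, adjusted p = 0.000291), and Hrh2 (−0.74, adjusted p = 0.0371) were lower over KO and WT and none was called over cKO and FL. The UV effects of F2rl1 (0.67, adjusted p = 0.002) and Hrh1 (1.54, adjusted p = 0.00931) differed between the experiments, as did those of 9.09% of all genes. Of the basophil list, 3 genes were tested in each experiment and Itga2 was lower over cKO and FL (−0.56, adjusted p = 0.0233) and over KO and WT (−0.47, adjusted p = 0.0199). Il3ra of the same list went the other way in group means. It had 3.95 CPM in cKO_UV against 2.73 CPM in cKO_NoUV, and 4.54 CPM in FL_UV against 3.00 CPM in FL_NoUV. In the whole-body experiment it had 3.77 CPM in KO_UV against 2.39 CPM in KO_NoUV, and 5.65 CPM in WT_UV against 4.00 CPM in WT_NoUV. The list thus gave no single direction. Cd200r3, named above, is also on that list.

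Markers of skeletal muscle and adipocytes were higher after UV over cKO and FL, where 12.0% of all genes were called higher. Of the skeletal muscle genes 5 of 6 were called higher, with summed levels of 5130 to 17591 CPM in cKO_UV, against 1767 to 5822 CPM in cKO_NoUV, and 2105 to 7219 CPM in FL_UV, against 1616 to 2948 CPM in FL_NoUV. Adipocyte genes were higher for 4 of 6, and macrophage genes for 2 of 7 (C1qa and C1qb). Macrophage sums were 252 to 767 CPM in cKO_UV, against 292 to 625 CPM in cKO_NoUV, and 644 to 1100 CPM in FL_UV, against 245 to 844 CPM in FL_NoUV. Fibroblast sums were 4198 to 8715 CPM in cKO_UV, against 4880 to 5965 CPM in cKO_NoUV, and 7384 to 10315 CPM in FL_UV, against 3929 to 6567 CPM in FL_NoUV, with 0 of 7 genes called. Macrophage and fibroblast sums overlapped between cKO_UV and cKO_NoUV. Endothelial, neutrophil and keratinocyte lists had 0 of 7, 0 of 6 and 0 of 6 genes called over cKO and FL, and the T cell list had 1 of 6 (Thy1), as higher. Trac, Cd3g, Cd3d and Cd247 of that list had lower group means after UV in both genotypes. Trac, for one, had 2.37 CPM in cKO_UV against 2.54 CPM in cKO_NoUV, and 1.69 CPM in FL_UV against 2.48 CPM in FL_NoUV. Cd3e was at 10.9 CPM in both cKO groups and was lower in FL_UV (7.16 CPM) than in FL_NoUV (10.4 CPM). The part of muscle, adipocytes and macrophages in the protease result was not tested. With the fibroblast list as a covariate, 3 of the 6 members called over cKO and FL were called (Mcpt4, Cma1 and Tpsb2), and Cpa3 had a log2 fold change of 0.65 (adjusted p = 0.104). The share of all genes called in that fit is not given here.

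Hair follicle genes ranged from 23.6 to 6520 CPM summed over 6 detected markers in the keratinocyte experiment. They were highest in cKO_NoUV 1 (6520 CPM), FL_NoUV 4 (3987 CPM), FL_UV 1 (1968 CPM) and FL_UV 4 (1225 CPM). With that list as a covariate the count over cKO and FL was 6 as before, and in cKO alone it was 3, without Cpa3 (1.16, adjusted p = 0.0675). In the whole-body experiment 0 members were called over KO and WT in the main fit, and 3 were with the fibroblast list as a covariate. Mrgprb2 was then called as higher (0.58, adjusted p = 0.0336), and Cpa3 (−0.60, adjusted p = 0.00705) and Ms4a2 (−0.61, adjusted p = 0.0283) as lower. The shares of all genes called in these covariate fits are not given here. Fibroblast sums there were 11344 to 14762 CPM in KO_UV, against 7730 to 9225 CPM in KO_NoUV, and 6634 to 9300 CPM in WT_UV, against 5561 to 9165 CPM in WT_NoUV.

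**Figure D4:**
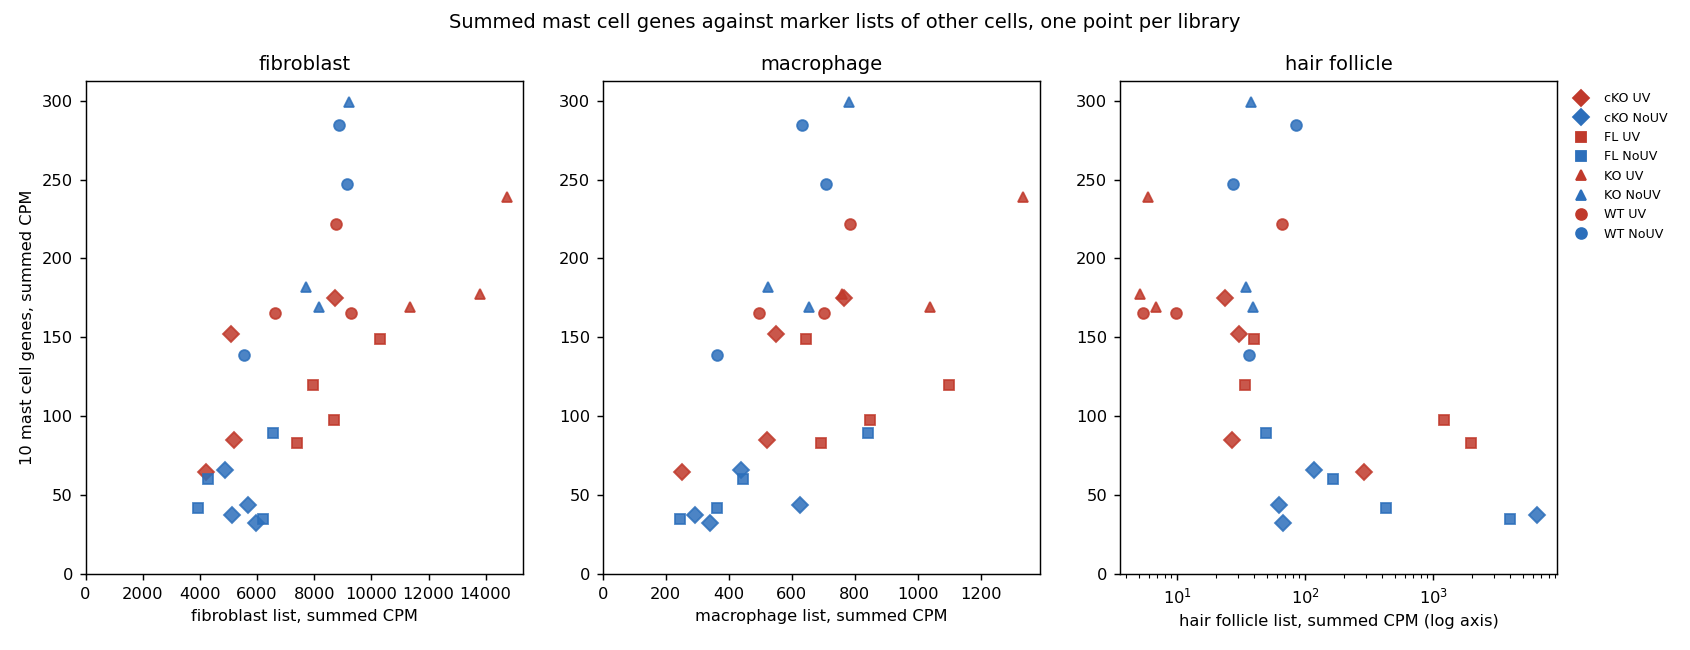
Summed CPM of the 10 mast cell genes against summed CPM of the fibroblast, macrophage and hair follicle marker lists (the last on a log axis), 1 point per library, with symbols for genotype and colour for UV. The keratinocyte libraries sit at 32.5 to 175 CPM of mast cell genes and the whole-body libraries at 139 to 299 CPM, and hair follicle genes spread from 5.11 to 6520 CPM.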

How the data were processed

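Skin RNA was sequenced in 28 libraries as 100-base read pairs from rRNA-depleted, stranded total RNA, per the labels' protocols. The authors deposited raw read counts per gene in 1 table for each experiment; per the submitters' processing notes the tools were cutadapt 4.6, HISAT2 2.1.0 and featureCounts, with GRCm38 named as the build. Gene positions in the keratinocyte table are not those of GRCm38, so coordinates were taken for the whole-body table's build only. Strand and multi-mapping settings are not given in the sources used here. Counts were fitted with edgeR 4.0.16 in R 4.3.3 (TMM, filterByExpr, robust quasi-likelihood, 1 coefficient per group, Benjamini-Hochberg over all genes tested, threshold 0.05), which was tested on simulated data, and with DESeq2 1.42.0 as an alternative. All 10 members were named, and list genes where called, at most 4 per list and comparison. The members and lists were chosen with earlier results of these data known. The design text calls the libraries biological replicates. Deviations from group means of same-numbered libraries correlated above 0.1 in 13 of 24 keratinocyte and 11 of 18 whole-body pairs. The rule that every pair must exceed 0.1 was met by cKO_UV with cKO_NoUV (0.227 to 0.469) and KO_UV with KO_NoUV (0.118 to 0.168), and by no other groups. This rests on the data, since the labels do not say what a number marks. Correlations of differently numbered libraries are not given here, so a pairing by number is not shown. No 2 replicates agreed within sampling noise.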

Additional observations from a re-analysis of the deposited data

Results flagged for a closer look

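Ms4a2 in cKO_NoUV had 0.415 CPM in replicate 1, where the other 3 libraries had 1.10, 1.10 and 1.21 CPM, so this library stood apart from its group. It was the only one in 36 groups of 4 libraries checked, and chance gives about 1 in 20 groups.

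The UV effect differed between the keratinocyte and whole-body experiments, by a test of the difference itself, for 4 proteases. The log2 difference was 1.49 for Mcpt4, 1.74 for Cma1, 1.77 for Tpsb2 and 1.71 for Cpa3, and 0 of these were called with Hoxc10 as a covariate. Hoxc10 ran with UV in the whole-body experiment, so that count cannot tell UV from body position. The share of all genes called in that fit is not given here.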

How the results depend on the processing

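Of 3284 single-gene values under alternatives, 3210 stayed on their side of the threshold, 47 were no longer called, 27 were newly called and 0 called values changed sign. Covariate fits were chosen after seeing the data, and the cause of each change was not tested. The share of all genes called under each alternative is not given here, so a changed count need not be particular to the members. The Hoxc10 level ran against UV in cKO and with UV in the whole-body experiment, so fits with it cannot tell UV from body position. For UV in cKO the count of members called was 4, and it was 1 with no filter on low counts and 0 with Hoxc10 as a covariate. For UV in FL it was 0, and it was 2 by DESeq2 and 1 with only the 2 groups compared. For UV in KO it was 0, and it was 1 with only the 2 groups compared (Hdc) and 1 with the fibroblast covariate (Cpa3, lower). For UV over KO and WT it was 0, and it was 1 by DESeq2, 1 with the hair follicle covariate and 3 with the fibroblast covariate. For UV over cKO and FL it was 6, and it was 3 with the fibroblast covariate. For the UV effect, keratinocyte minus whole-body experiment, it was 4, and it was 0 with Hoxc10 as a covariate. Leaving out 1 library at a time gave 0 to 1 for UV in WT, 0 to 2 for UV in FL, 0 to 5 for UV in cKO, 0 to 1 for UV over KO and WT, 5 to 7 for UV over cKO and FL, 3 to 5 for the difference between experiments, and 0 to 0 elsewhere. With the replicate block, fitted to all groups of an experiment, the count was 4 for UV in cKO (Cpa3 not called, adjusted p = 0.0714; Gata2 called, adjusted p = 0.0388), 6 over cKO and FL, 4 for the difference between experiments and 0 elsewhere. Outside cKO the block changed no call of a member. At most 17 counts of Tpsab1 in a library and 28 of Fcer1a in a keratinocyte library stand behind their values.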
